A study of Mus musculus with 4 samples.

Results

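Keratins are the intermediate filament proteins of epithelial cells, and a filament is built from a type I and a type II keratin that pair with each other. Apart from Krt18, a type I gene that lies at the edge of the type II genes, the mouse genes for each type stand side by side in a cluster of their own. Which pairs a cell makes follows its kind: Krt8 and Krt18 mark simple epithelia such as luminal ducts, Krt5 and Krt14 the basal layer of ducts and stratified epithelia, Krt6a, Krt16 and Krt17 epithelia that are wounded or proliferate fast, and others the cornified epidermis, the hair follicle or the papillae of the tongue. The open regions at these genes were examined in mouse salivary gland organoids (mSGOs).

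The members were the 53 protein-coding genes of the RefSeq gene table of GRCm38.p6 whose symbol is Krt with a number, out of 21887 protein-coding genes on the chromosomes of the list. Of these, 27 lay on chromosome 11 in the type I cluster and 26 on chromosome 15 in the type II cluster. All samples were non-irradiated organoids of submandibular gland of female C57BL/6 mice. They were grown in Matrigel with Wnt3a- and R-spondin1-conditioned medium, EGF, FGF2 and Y27632. The paper states that the ATAC-seq used organoids of the younger of its 2 culture times, derived from different mice. The labels name 2 samples of passage 1 and 2 of passage 2. Each passage has 1 sample whose donor mouse was 12 weeks old and 1 whose donor was 3 months old, nearly the same age in different units. ATAC-seq measures where Tn5 transposase can reach the DNA, and 1 list of regions without values per sample was deposited, so passages and replicates could not be compared and depth per sample is unknown. The list held 32011 distinct regions, each with a fold over the local background at its strongest summit and a score from 540 to 1000 for its reproducibility (the irreproducible discovery rate, IDR). Which samples or reads were compared for that score is not given. The submitters' processing notes name GRCm39, but the positions fitted GRCm38: 38.3% of protein-coding 5′ ends had a region with the GRCm38.p6 table, 5.04% with GRCm39 positions and between 3.66% and 4.65% with GRCm38.p6 ends shifted by 2 to 100 kb.

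The labelled tissue was checked against markers. Of 9 epithelial markers, 7 had a region at the 5′ end, including Epcam, Cdh1 and Grhl2, while Cldn7 and Trp63 did not. Of 6 duct or acinar markers only Sox9 did, while Aqp5, Bhlha15, Prol1, Sox10 and Ascl3 did not. None of 4 endothelial and none of 4 fibroblast markers had one, and 1 of 5 immune markers (Cd68) and 1 of 3 melanocyte markers (Pmel) did, beside 38.3% of all protein-coding genes. Regions lay inside some of the markers without one at the 5′ end, with 7 in Trp63, 3 in Pecam1, 1 in Tek and 1 in Pdgfra.

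An open region was listed at the 5′ end of 6 keratin genes: Krt14 and Krt5, the basal pair, Krt16, Krt17 and Krt6a of the wound group, and Krt8 of simple epithelia. Here a region counts as being at a 5′ end when its midpoint lies at most 1 kb from the outermost annotated start. The 6 genes made up 11.3% of the 53 keratins, whereas 38.3% of the 21440 protein-coding genes with a known strand had such a region. By class, these were 2 of 3 basal keratins, 3 of 4 stress and wound keratins and 1 of 6 simple keratins. None of the 40 keratins of the other classes had one: 0 of 4 of internal stratified epithelia, 0 of 5 of suprabasal skin, 0 of 8 of the inner root sheath and companion layer, 0 of 15 of the hair shaft and tongue papillae and 0 of 8 unclassified keratins. Since the list has no values per sample, these are counts and carry no test. The classes are from general knowledge. The paper uses Krt17 among its luminal duct markers and Krt6a for basal duct and stem/progenitor cells, so the class counts depend on the grouping. Within 500 bp 35.4% of protein-coding genes had a region, and within 2 kb 41.4%. With the strongest summit in place of the midpoint the share was 38.3%, and with any overlap 39.1%. The same 6 keratins were found in each of these settings. With stricter sets of regions they fell to 2: Krt16 and Krt8 among the 16006 regions with the lowest q-values, and Krt14 and Krt16 at an IDR score of 1000, against 25.9% and 24.0% of protein-coding genes. In the first of these sets 0 of 3 basal and 1 of 4 stress and wound keratins had a region, so the order of the classes against all genes was not kept.

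**Figure D1:**
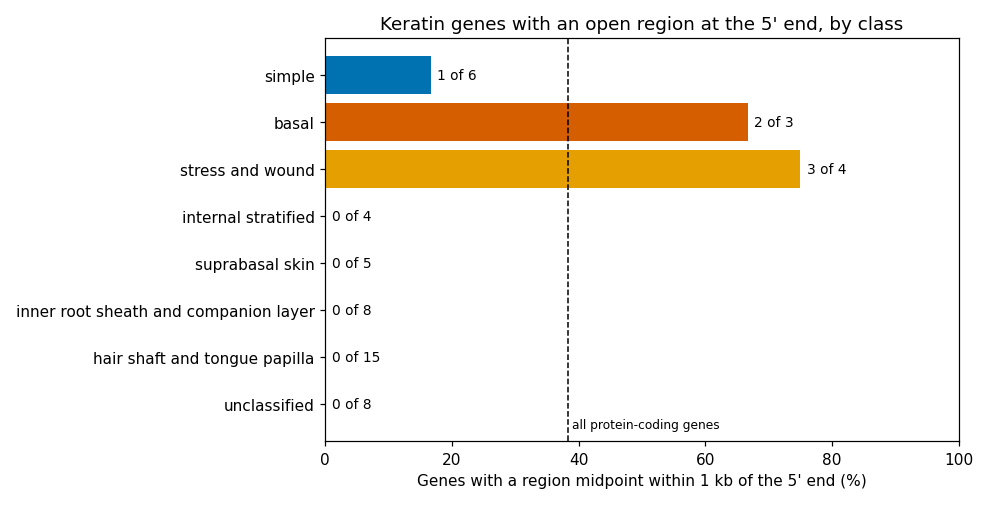
Share of keratin genes of each class (bars, %) with a region midpoint within 1 kb of the 5′ end, with the number of genes beside each bar; the dashed line is the 38.3% of all protein-coding genes. The basal and the stress and wound classes lie above the line, the simple class below it, and the other 5 classes are at 0; among the 16006 regions with the lowest q-values, basal keratins fell to 0 of 3 and stress and wound keratins to 1 of 4.

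Promoter sequence was at hand for 36 of the 53 genes in a RefSeq table of GRCm38.p6. Shown are the 250 bases before the start of 2 genes with a region (Krt5 and Krt8), of Krt18, the filament partner of Krt8 that had none, and of Krt31, a hair keratin. Capitals mark matches on either strand to letters searched for in every promoter: CACCC of KLF sites in all of them, GCCNNNGGC of AP-2 sites in Krt18 and the TATA box letters TATAAA in Krt31. Krt5 is at chr15:101712906-101713155, Krt8 at chr15:102004343-102004592 and Krt31 at chr11:100050552-100050801, all 3 on the minus strand, and Krt18 is at chr15:102027966-102028215 on the plus strand.
Krt5: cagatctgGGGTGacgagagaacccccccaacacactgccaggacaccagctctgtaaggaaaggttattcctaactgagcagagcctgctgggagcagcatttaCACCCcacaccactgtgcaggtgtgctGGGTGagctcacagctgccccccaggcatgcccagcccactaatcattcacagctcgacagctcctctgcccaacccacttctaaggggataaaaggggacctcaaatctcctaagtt
Krt8: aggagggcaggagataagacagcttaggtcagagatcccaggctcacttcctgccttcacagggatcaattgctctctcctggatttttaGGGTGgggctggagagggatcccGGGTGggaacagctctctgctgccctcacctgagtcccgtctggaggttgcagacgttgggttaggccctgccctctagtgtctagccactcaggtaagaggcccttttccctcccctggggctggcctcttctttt
Krt18: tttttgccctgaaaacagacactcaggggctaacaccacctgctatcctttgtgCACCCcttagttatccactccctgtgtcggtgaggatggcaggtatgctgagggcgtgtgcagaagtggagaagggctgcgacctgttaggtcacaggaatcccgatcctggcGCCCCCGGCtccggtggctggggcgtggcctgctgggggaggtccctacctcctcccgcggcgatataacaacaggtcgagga
Krt31: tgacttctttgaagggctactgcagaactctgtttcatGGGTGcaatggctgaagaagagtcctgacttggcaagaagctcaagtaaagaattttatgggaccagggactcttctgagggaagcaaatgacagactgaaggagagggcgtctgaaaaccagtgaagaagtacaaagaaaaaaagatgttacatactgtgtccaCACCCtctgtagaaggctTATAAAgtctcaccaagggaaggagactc
The region at Krt8 covered all 250 bases of its sequence, and that at Krt5 covered the 183 nearest the start. The Krt18 sequence held 12 CG pairs, against 3 for Krt8, 2 for Krt5 and 1 for Krt31.

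Keratin promoters held few CG pairs. In the 37 windows of the 36 genes, the median was 4 in 250 bases (quartiles 2 and 5), and over the 21263 windows of protein-coding genes it was 10 (quartiles 3 and 19). Of keratin windows with at most 4 CG pairs, 2 of 24 had a region within 1 kb, those of Krt5 and Krt8, against 7.34% of all such windows. Of those with more than 4, 0 of 13 had one, among them Krt7 with 16 and Krt18 with 12, against 56.9% of all such windows. The limit of 4 was chosen after the values were seen, and the window of Krt14 in the table belongs to a later start that lies over 1 kb from its region. Krt16, Krt17 and Krt6a, all with a region, have no entry in the table.

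Both strands of every window were searched for the motif letters. TATAAA was found in 17 of 37 keratin windows (45.9%) and in 11.6% of all windows. On the strand of the gene and starting 45 to 21 bases before the start, it was found in 13 keratin windows (35.1%), such as those of Krt10, Krt12, Krt25, Krt31, Krt71 and Krt76, and in 2.66% of all. None of the 17 windows with TATAAA had a region, but only 2 of the 37 keratin windows had one at all. Of all windows with TATAAA 19.2% had a region, and of all windows 40.2%. CACCC was found in 78.4% of keratin windows and 54.2% of all, and GGGCGG, the GC box, in 5.41% and 42.6%. Shares were 5.41% and 6.13% for TGANTCA (AP-1), 13.5% and 16.3% for GCCNNNGGC, 5.41% and 12.4% for TGTGGT (RUNX) and 8.11% and 11.7% for GGAATG (TEAD). For the core letters of a p63 site, CATG, 4 bases of any kind and CATG again, the shares were 0 of 37 and 0.522%. Matches of different motifs may overlap, and a match is not evidence of binding.

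The regions at the 6 keratin 5′ ends had modest folds. Their median fold was 5.05, between 2.95 and 8.30, and that of the 8178 regions near protein-coding 5′ ends was 7.90 (quartiles 6.05 and 10.6). In bulk organoids, a promoter open in few cells and a promoter less open in every cell cannot be told apart. An IDR score of 1000, the top of the scale, was given to 2 of the 6 regions, those of Krt14 and Krt16, and to 57.2% of the regions near protein-coding 5′ ends. All 6 midpoints lay upstream of the start.

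Krt14 (Gene ID 16664) makes the type I keratin of basal cells. Its region, chr11:100207376-100207868, had a fold of 5.43, higher than 15.6% of regions near coding 5′ ends. It reached from 358 bp upstream to 134 bp downstream, with summits 237 and 123 bp upstream. Krt5 (Gene ID 110308), its type II partner, had the lowest fold of the keratins, 2.95, higher than 0.7% of such regions. That region, chr15:101712795-101713088, reached from 183 bp upstream to 110 bp downstream. A further region of higher fold, 4.35, followed 1.05 kb upstream of Krt5 at chr15:101713769-101714139, just outside the limit. The third basal keratin, Krt15, had no region within 35.3 kb.

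Of the wound group, Krt16 (Gene ID 16666) had the strongest region at any keratin 5′ end, with a fold of 8.30 and an IDR score of 1000. It lay at chr11:100248898-100249498, ended 4 bp into the gene and had its highest summit 416 bp upstream. Krt17 (Gene ID 16667) had a single-summit region of 288 bp at chr11:100260915-100261202 with a fold of 4.67, and its summit was 24 bp upstream. Krt6a (Gene ID 16687), which can pair with both, had 3 summits with folds of 3.91, 3.35 and 3.32 in 1 region, chr15:101694169-101694675. Its near copy Krt6b had none at the 5′ end, and the nearest region lay 6.41 kb upstream with a fold of 6.38. Within 500 bases of their starts in GRCm39, 61 of 927 stretches of 75 bases, the read length, of Krt6a (6.58%) recur exactly elsewhere in the genome, and as many of Krt6b do. The same held for no stretch of Krt5, Krt8, Krt14, Krt16 or Krt17, and for none in 49 of the 53 keratins, the highest share being 8.95% for Krt87.

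Among simple keratins, Krt8 (Gene ID 16691) had a region at chr15:102004258-102004612 with a fold of 5.96 and a summit 48 bp upstream. Krt18 had none at its start, and the nearest was centred 11.3 kb upstream of it. Krt7 and Krt19, of ducts, had their nearest region at 24.0 and 45.2 kb, and Krt20 and Krt23 at 76.1 and 21.2 kb. A further region, chr15:102005386-102005790, lay 1.25 kb upstream of Krt8 with a fold of 5.28.

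**Figure D2:**
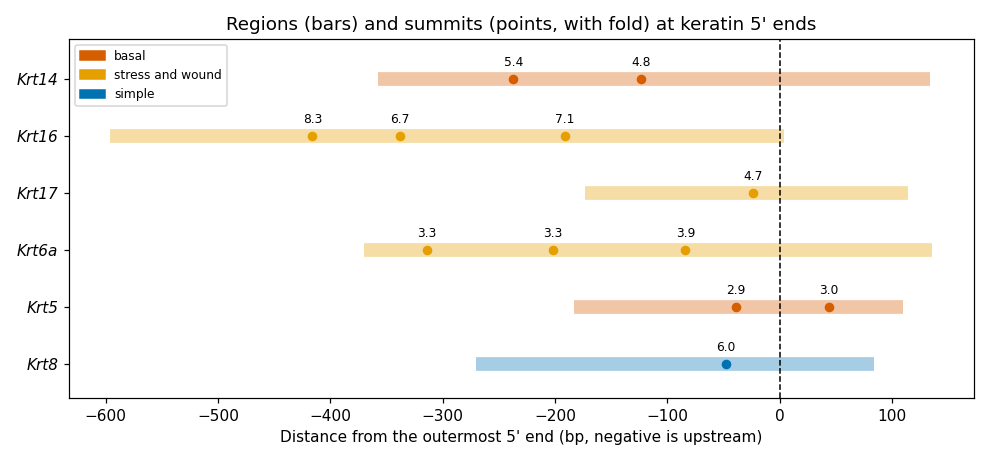
Regions (bars) and summits (points, with their fold over the local background) around the outermost 5′ end (dashed line) of the 6 keratin genes that had one; the horizontal axis is distance in bp and negative is upstream. The Krt16 summits are the highest, from 6.66 to 8.30, and the Krt5 summits, at 2.87 and 2.95, the lowest.

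The distance from the 5′ end to the nearest region had a median of 20.9 kb over the 53 genes, of 26.1 kb over the 47 without a region at the 5′ end and of 7.62 kb over all protein-coding genes (quartiles 0.137 and 52.5). A region within 10 kb was found for 17 keratins (32.1%), against 52.8% of protein-coding genes: all 4 of the stress and wound class, 2 basal, 1 simple (Krt8), 6 of 15 hair shaft and tongue, 1 of 8 inner root sheath (Krt75) and 3 unclassified keratins. The medians were 0.206 kb for stress and wound, 0.112 kb for basal, 22.6 kb for simple, 14.4 kb for hair shaft and tongue, 58.1 kb for internal stratified, 76.2 kb for inner root sheath and 78.2 kb for suprabasal skin keratins. Krt13 and Krt4, the pair of oral and oesophageal epithelium, were 20.9 and 42.2 kb away, and Krt1 and Krt10, the pair of cornifying epidermis, 78.2 and 117 kb. The closest gene outside the limit of 1 kb was the hair keratin Krt35 at 4.47 kb, and the farthest one inside it was Krt16 at 296 bp.

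**Figure D3:**
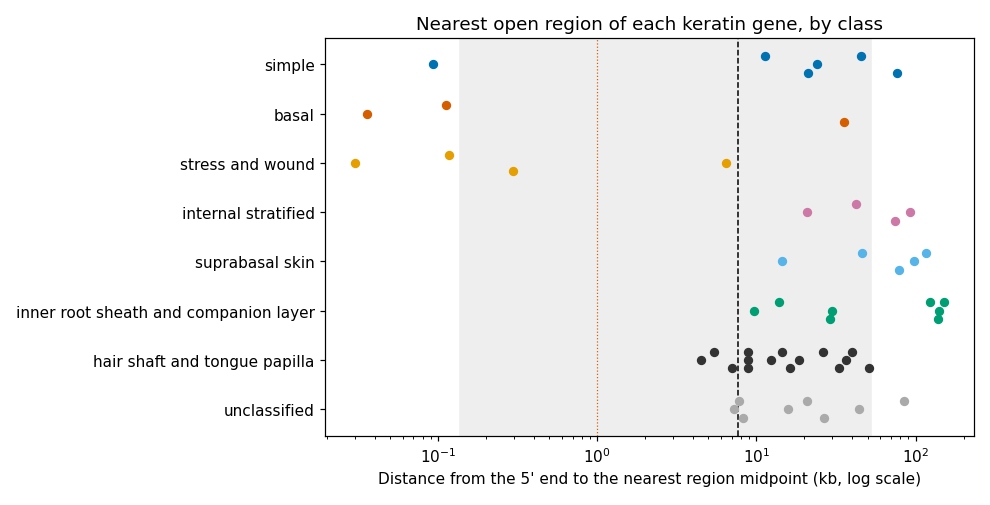
Distance from the 5′ end of each keratin gene (points) to the nearest region midpoint, in kb on a log scale, by class. The dashed line and the grey band are the median (7.62 kb) and quartiles of all protein-coding genes, and the dotted line is 1 kb; 6 points lie left of it and the next is at 4.47 kb.

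Regions within the genes were few. A midpoint lay in 3 keratins, Krt39, Krt80 and Krt78, against 39.4% of protein-coding genes. Of those no longer than the longest keratin gene, Krt78 with 50.6 kb, 31.1% held one. The next longest keratin, Krt80, had 21.85 kb, so that limit was set by Krt78 alone and the compared genes are not matched in length. With any overlap, the number of keratins was 9, since the 6 regions at 5′ ends reach into their genes. The share of protein-coding genes with any overlap was not counted, and 39.4% and 31.1% are for midpoints. The start of Krt78 in the promoter table lies 42.3 kb from its outermost end. Its 3 regions, with folds of 9.18, 5.22 and 8.65, thus lie between Krt79 and Krt8 in the upstream part of that span.

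The type I cluster, 1037.2 kb from Krt222 to Krt42, held 11 regions, or 1.06 per 100 kb, against 1.54 over chromosome 11. With the lowest q-values it held 4 (0.386 and 0.677 per 100 kb), and at an IDR score of 1000 it held 5 (0.482 and 0.613). Of the 11 regions, 3 were at keratin 5′ ends, 1 within a gene and 7 between genes. They were unevenly placed: 2 in the 310.0 kb from Krt222 to Krt40, 1 in the 468 kb of keratin-associated protein genes up to Krt33a and 8 in the 259 kb from Krt33a to Krt42 (3.09 per 100 kb). The bounds of these segments were drawn after the positions were seen. The keratins between Krt222 and Krt23, which include those of the inner root sheath, Krt10, Krt12 and Krt20, had their 10 starts in a stretch of 313.5 kb without a region. The longest such stretch, 473.7 kb, held the starts of 19 keratin-associated protein genes and of Krt33a, Krt33b, Krt34 and Krt31, and it ranked 30 among the 1882 gaps between regions of the chromosome, whose median was 22.5 kb.

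The strongest regions of the cluster lay among hair keratins, away from any start. Between Krt31 and Krt32, chr11:100055659-100056219 had a fold of 10.6 and chr11:100067440-100068043 a fold of 10.8, higher than 83.2% and 84.8% of all regions, and both had an IDR score of 1000. They were 5.39 and 17.2 kb upstream of Krt31, whose promoter is shown above with no region. Next to Krt35, chr11:100100413-100100976 had the lowest fold of the cluster, 3.82. In the wound group, 2 regions with folds of 5.09 and 5.42 stood between Krt16 and Krt17, the second of them just past the 3′ end of Krt17.

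**Figure D4:**
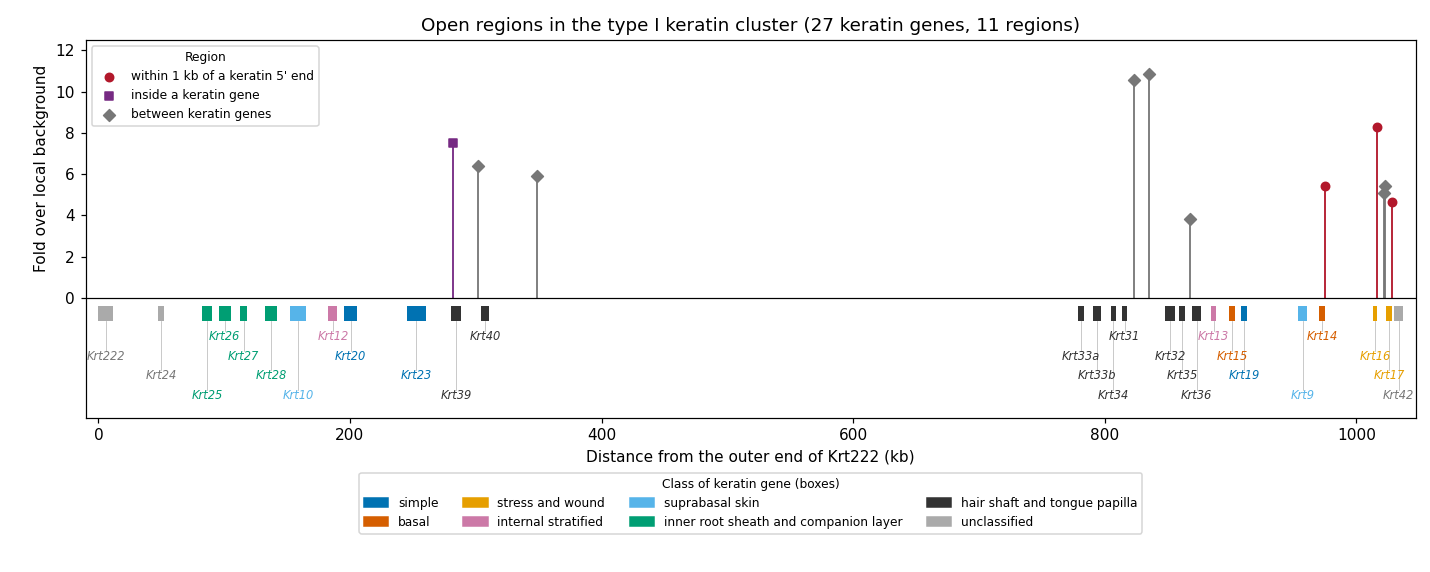
Type I cluster, with distance from the outer end of Krt222 in kb, keratin genes as boxes coloured by class, and regions as stems whose height is the fold over the local background. The 2 highest stems, 10.6 and 10.8, stand between Krt31 and Krt32, and the stems at 5′ ends stand at Krt14, Krt16 and Krt17.

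The type II cluster, 683.7 kb from Krt80 to Krt18, held 17 regions, or 2.49 per 100 kb, against 1.24 over chromosome 15. With the lowest q-values it held 6 (0.878 and 0.577 per 100 kb), and at an IDR score of 1000 it held 5 (0.731 and 0.521). The type I cluster, which is longer, held 4 (0.386 per 100 kb) and 5 (0.482) in these sets. The density was thus higher in the type II cluster in both sets. Of the 17 regions, 3 were at keratin 5′ ends, 4 within genes and 10 between genes. The 91.7 kb from the end of Krt79 to Krt18, with Krt78 and Krt8, held 7 of them (7.63 per 100 kb), and the 160 kb between Krt75 and Krt71, with Krt6b, Krt6a and Krt5, held 6 (3.75 per 100 kb). The 226 kb from Krt80 to Krt75, mostly hair keratins, held 3, and the 206 kb from Krt71 to Krt79 held 1. These segments were drawn after the positions were seen. The longest stretch without a region, 193.7 kb, held 8 starts, those of Krt72, Krt73, Krt2, Krt1, Krt77, Krt76, Krt4 and Krt79.

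The highest fold of the type II cluster, 9.18, was that of chr15:101966745-101967159 within the span of Krt78. Between Krt6a and Krt5, chr15:101697449-101698029 lay 3.43 kb upstream of Krt6a with a fold of 6.41 and an IDR score of 1000, above the fold of 3.91 at its 5′ end. Between Krt8 and Krt18 there were 3 regions beside that at the Krt8 start, with folds of 5.28, 5.93 and 5.48. They lay within 1 kb of the start of a long noncoding RNA gene, Gm36026 or Gm41404, as did a region for 14.2% of all such genes. Near Krt72, chr15:101772171-101773002 was the widest of the cluster at 832 bp, with 4 summits and a fold of 6.72.

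**Figure D5:**
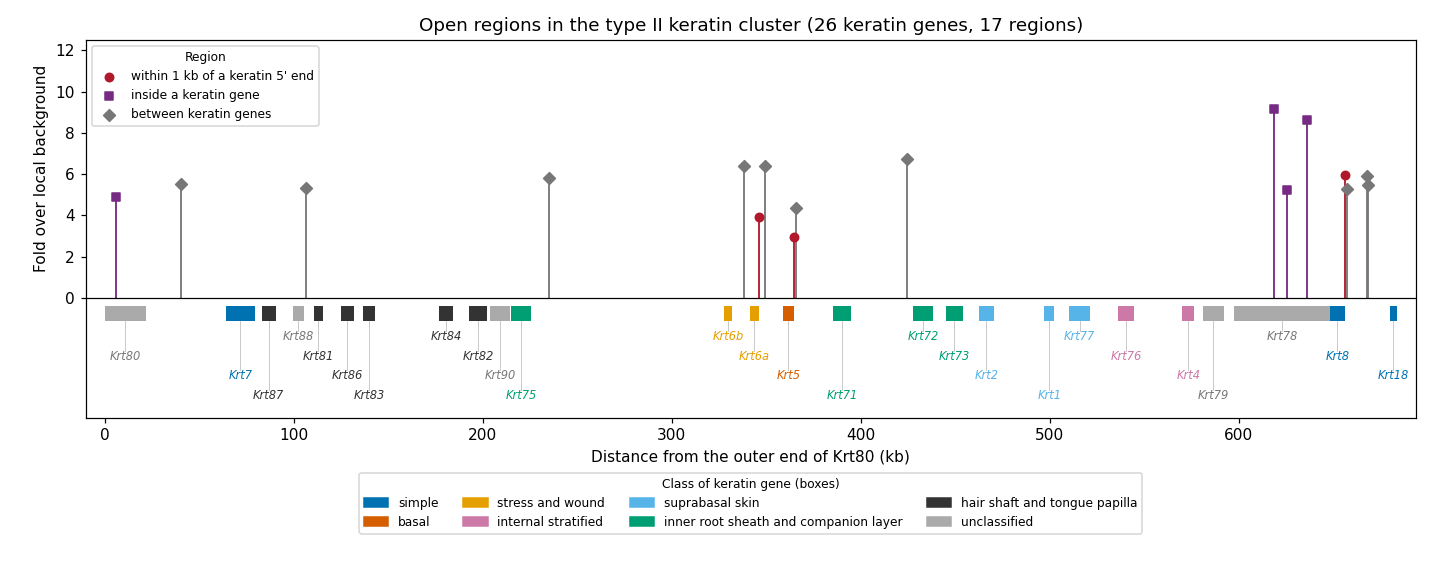
Type II cluster, drawn as the type I cluster, with distance from the outer end of Krt80 in kb. The stems at 5′ ends stand at Krt6a, Krt5 and Krt8, and the tallest, 9.18, in the span of Krt78; no stem stands over the genes from Krt73 to Krt79.

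Over both clusters, the 22 regions away from keratin 5′ ends had a median fold of 5.86, and the 6 at 5′ ends 5.05. The median over all regions of the list was 7.11. Several summits were given for 23 of the 28 regions of the clusters (82.1%) and for 70.1% of all regions.

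Genes that work with keratins were counted for comparison. Of 13 genes for proteins that anchor or organise keratin filaments, 7 had a region at the 5′ end. They were Dsp (desmoplakin, fold 5.55), Jup (plakoglobin, 7.65), Pkp1 (4.99), Evpl (5.65), Eppk1 (8.43), Fam83h (6.33) and Pof1b (6.64). Plec, Dst, Ppl, Pkp2, Pkp3 and Tchp had none there, although Dst held 11 regions within the gene and Plec 5. Of 15 other intermediate filament genes, 4 had one, Lmna (7.86), Lmnb1 (5.68), Vim (8.75) and Bfsp1 (12.7), and the neurofilament genes Nefl, Nefm and Nefh, Gfap and Des had none. Of 56 genes for keratin-associated proteins, which form the matrix of hair, 1 had a region (1.79%), Krtap1-5. All these shares are to be read beside the 38.3% of protein-coding genes.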

How the data were processed

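Bulk ATAC-seq of 4 organoid samples was deposited as 1 list. The authors used the ENCODE ATAC-seq pipeline to align paired-end reads of 75 bp and to call peaks, with all organoid samples joined in a consensus list; its version and filters are not given in the sources used here, and the number of its regions or lines does not match the number of peaks that the study gives for that list. The deposited list holds, for each summit, an IDR score, the fold (ratio) to local background, and 2 significance values as −log10, 1 for the p-value and 1 for the q-value. The 69545 lines were joined into 32011 distinct regions, each with the values of its strongest summit. Gene spans came from a RefSeq table of GRCm38.p6. Strand came from a RefSeq promoter table of that build (36 keratins) or, by gene name, from GENCODE M39 (17 keratins). The 17 without a promoter entry are Krt222, Krt33a, Krt35, Krt15, Krt19, Krt16, Krt17, Krt80, Krt87, Krt88, Krt81, Krt86, Krt83, Krt6b, Krt6a, Krt1 and Krt4. Stretches that recur were found in GRCm39 alone with BLAST+ 2.17.0+. Counting functions were tested on simulated data. No comparison across samples was possible, and no test was run.

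Keratins were grouped into simple, basal, stress and wound, internal stratified, suprabasal skin, inner root sheath and companion layer, and hair shaft and tongue papilla classes, from general knowledge, and the others were left unclassified. The members, classes and lists were chosen with earlier results of these data known. All 53 members were counted. Krt74 and Krt85, planned for the inner root sheath and the hair shaft class, were not among them. Members with a region at the 5′ end were named with that region. Of each cluster, the strongest region, the longest stretch without a region and the gene holding most regions were named. Other named regions were chosen after their values were seen. Python 3.11.15, numpy 2.4.6, pandas 2.3.3 and matplotlib 3.10.9 were used.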

Additional observations from a re-analysis of the deposited data

How the results depend on the processing

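No paired analysis was possible because the list has no values per sample, and samples could not be left out. Of 103 values under alternative settings, 85 stayed within 1.5 times the value reported and 18 did not. Many of the 85 belong to keratin classes with 0 genes in the main setting. In a smaller set of regions or a shorter distance such a 0 could not change, so the tally does not measure how robust the results are. Within 5 kb, the share of protein-coding genes with a region rose to 46.5%. The 6 keratins with a region at the 5′ end became 7 at that distance, when Krt35 gave the hair shaft and tongue class 1. Among the 16006 regions with the lowest q-values they were 2, Krt16 and Krt8, which left 0 basal and 1 stress and wound keratin, and the share of protein-coding genes was 25.9%. Among the 14422 regions with an IDR score of 1000 they were 2, Krt14 and Krt16, which left 1 basal, 1 stress and wound and 0 simple keratins, and the share of protein-coding genes fell to 24.0%. Gene positions of GRCm39, tried as a check of the build, gave 3 other genes. Adding the starts of the promoter table, an alternative chosen after the data were seen, gave the same 6. The share of protein-coding genes was then 41.8%. The 11 regions of the type I cluster became 4 with the lowest q-values, 5 at an IDR score of 1000 and 29 lines. The 17 of the type II cluster became 6, 5 and 40. Counting any overlap, or adding 1 kb to both sides of the gene, raised the 3 keratins that hold a region to 9. The share of protein-coding genes was not counted in these ways. The stricter sets are smaller by construction. Depth per sample is unknown, so a gene without a listed region is not shown to be closed.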

Other observations

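Genes of the cornified envelope were counted as a further list of 9, chosen with earlier results of these data known. Sprr1a and Sprr1b, which code for small proline-rich proteins that rise in stressed and wounded epithelia, had a region at the 5′ end with folds of 8.70 and 4.25. Sprr3, Ivl, Rptn, Tchh, Lor, Flg and Flg2 had none there, and the nearest region lay between 2.29 kb (Tchh) and 73.5 kb (Flg) away. The 2 of 9 genes compare with 38.3% of protein-coding genes.

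Among the other genes inside the keratin clusters, 1 of 4 long noncoding RNA genes of the type I cluster had a region at its 5′ end, Gm32730, whose region is also that of Krtap1-5, and 2 of 6 of the type II cluster, Gm36026 and Gm41404. Over all long noncoding RNA genes, 14.2% had one.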
